A study of Homo sapiens with 6 samples.

Results

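The probes of 8 microRNA host genes that are transcribed as long non-coding RNAs (lncRNAs) were examined on arrays of SKOV3 ovarian cancer cells labelled 1α,25(OH)2D3 or vehicle. The genes were MIR205HG, MIR22HG, MIR17HG, MIR31HG, MIR210HG, MIR100HG, MIR155HG and DLEU2. The gene name column of the scanner files held only the probe's own identifier, so the probes were found by their sequence. A probe belonged to a gene when it matched a sense transcript of that gene in GENCODE release 44 without a mismatch. Of 43495 genes with such a probe the 8 hosts had 89 of the 125601 probes. They comprised 32 probes of MIR100HG, 17 of MIR22HG, 14 of DLEU2, 10 of MIR17HG, 5 each of MIR205HG and MIR31HG, and 3 each of MIR210HG and MIR155HG. Of the 89 probes, 43 shared bases with another probe of the same gene and 19 crossed a splice junction, so the probes of 1 gene are repeated readings of the same RNA and not replicates.

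SKOV3 is an established line of human ovarian carcinoma cells. The sample titles spell the line SKOV-1, and the study's name SKOV3 is used here. The study set 3 arrays labelled 1α,25(OH)2D3, the hormonal form of vitamin D, at 100 nmol/L for 72 h, against 3 arrays labelled vehicle, with a matched amount of ethanol for the same time, to find lncRNAs that respond to the hormone. All samples shared the cell line and its medium with heat-inactivated fetal bovine serum, and they are grouped here by their labels. Values are the deposited log2 signals of single-colour arrays. Every difference is the mean of the 1α,25(OH)2D3 label minus the mean of the vehicle label on that log2 scale, so that a difference of 1 is a fold of 2. The labels do not say whether the 3 samples of a label came from separate cultures, so p-values measure only the spread between these arrays, and the small number of arrays limits the precision.

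The labels were set against CYP24A1, the enzyme that breaks down 1α,25(OH)2D3 and a textbook target of the vitamin D receptor. Under the 1α,25(OH)2D3 label its probe A_23_P28815 read 2.23, 13.84 and 3.30 (replicates 1, 2 and 3), and under the vehicle label 14.18, 4.75 and 14.34. It was well above background on replicate 2 of the 1α,25(OH)2D3 label and on vehicle replicates 1 and 3, and on no other array. The CYP24A1 probe OEV5_63001 was so on the same 3 arrays. A further CYP24A1 probe, A_33_P3369401, was so on those and on vehicle replicate 2, where it read 8.24. It read 14.64 to 15.25 on those 3 arrays, and 3.88 and 4.46 on replicates 1 and 3 of the 1α,25(OH)2D3 label. The level of the hormone's target therefore goes against 4 of the 6 labels, those of replicates 1 and 3 of both, and a direction between the labels below is a direction between arrays labelled in that way. The arrays were not regrouped by A_23_P28815. Replicates 1 and 2 of the 1α,25(OH)2D3 label lay on slide 1 and the other 4 arrays on slide 2. The share of probes well above background ran from 49.1% to 57.5% per array. Of the markers of ovarian carcinoma epithelium, 9 of 10 with a probe were well above background on all 6 arrays, PAX8 and KRT7 among them, while E-cadherin (CDH1) was so on 1 array. Detection does not set cell types apart here, since 7 of 7 leukocyte markers were also well above background on all 6 arrays. Of the ovarian carcinoma markers 9 were tested, 4 with a positive and 5 with a negative difference and a median of -0.012. Among them KRT19 (-0.75, unadjusted p = 0.0467) and MUC16, the CA-125 antigen (-0.71, unadjusted p = 0.00754), had an unadjusted p under 0.05 in limma. Both were lower under the 1α,25(OH)2D3 label, and their part in the results below was not tested.

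A microRNA host gene is copied by RNA polymerase II into a primary transcript. The nuclease Drosha with its partner DGCR8 cuts the microRNA hairpin out of that transcript, Dicer trims the hairpin to the mature microRNA, and an Argonaute protein carries the mature strand to messenger RNAs that pair with its seed. The rest of the host transcript can be spliced and kept as an lncRNA. The arrays measured amplified RNA that hybridized to host transcripts and not the mature microRNAs, so nothing below is a level of a mature microRNA.

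The mature strands that the 8 genes encode are listed as background, and neither their levels nor their targets were measured here. They are taken from RefSeq (GRCh38.p14), written 5′ to 3′, with the seed (bases 2 to 8) in capitals. MIR205HG, a transcript of basal and stratified epithelia, encodes miR-205. MIR210HG encodes miR-210, the classical microRNA of hypoxia. MIR31HG spans MIR31 beside the CDKN2A locus, MIR22HG encodes miR-22, and MIR155HG, first known as BIC in B cells, encodes miR-155.
hsa-miR-205-5p (MIR205HG): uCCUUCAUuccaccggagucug
hsa-miR-210-3p (MIR210HG): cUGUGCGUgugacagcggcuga
hsa-miR-31-5p (MIR31HG): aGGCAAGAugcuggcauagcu
hsa-miR-22-3p (MIR22HG): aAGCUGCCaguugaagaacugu
hsa-miR-155-5p (MIR155HG): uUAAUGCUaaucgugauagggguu

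The other 3 hosts encode clusters. MIR17HG is the transcript of the miR-17-92 cluster, a target of MYC. Within it miR-17-5p and miR-20a-5p share the seed AAAGUGC and miR-19a-3p and miR-19b-3p share GUGCAAA.
hsa-miR-17-5p (MIR17HG): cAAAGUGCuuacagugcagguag
hsa-miR-20a-5p (MIR17HG): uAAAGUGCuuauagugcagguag
hsa-miR-18a-5p (MIR17HG): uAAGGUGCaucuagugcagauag
hsa-miR-19a-3p (MIR17HG): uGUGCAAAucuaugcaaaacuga
hsa-miR-19b-3p (MIR17HG): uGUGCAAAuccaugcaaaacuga
hsa-miR-92a-3p (MIR17HG): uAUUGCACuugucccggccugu
MIR100HG holds miR-100, let-7a-2 and miR-125b-1 with 3 different seeds. DLEU2, which lies in the region of chromosome 13 often deleted in chronic lymphocytic leukaemia, holds miR-15a and miR-16-1, whose mature strands share the seed AGCAGCA.
hsa-miR-100-5p (MIR100HG): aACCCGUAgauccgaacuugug
hsa-let-7a-5p (MIR100HG): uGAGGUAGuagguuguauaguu
hsa-miR-125b-5p (MIR100HG): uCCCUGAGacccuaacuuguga
hsa-miR-15a-5p (DLEU2): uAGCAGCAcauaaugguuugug
hsa-miR-16-5p (DLEU2): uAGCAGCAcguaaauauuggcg

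Transcripts of all 8 hosts were detected. Signal well above background was found on all 6 arrays for 67 of the 89 probes and on no array for 10. A probe was tested when at least 1 label had it well above background on each of its 3 arrays, which held for 71 member probes, and the other 18 are given by value or count. Among the 71 tested probes the log2 difference was below 0 for 60 and above 0 for 11, with a median of -0.34. OEV5_52952 and OEV5_52095 passed this filter only through the vehicle label, and OEV5_32976 and OEV5_58561 only through the 1α,25(OH)2D3 label. Each was higher in the label that let it pass. Over all 63337 probes tested, 50.6% had a difference below 0 and the median was -0.0037. Most of the 60 belonged to 3 genes, with 20 of MIR100HG, 17 of MIR22HG and 9 of DLEU2.

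The study's threshold, a fold over 2 together with p under 0.05 before adjustment, was passed in limma by 4 of the 71 member probes, where 0.745% of all probes tested passed it. MIR205HG had 1 such probe, higher under the 1α,25(OH)2D3 label as were 0.486% of all probes, and MIR210HG had 3, lower under it as were 0.259%. Of these 3, OEV5_52904 and OEV5_58120 share 58 bases and are repeated readings of the same stretch. OEV5_32976 of MIR205HG and OEV5_52952 of MIR210HG passed the detection filter only through the label in which they were higher. These 2 calls are therefore no independent support for a difference. With the filter on all 6 arrays neither was tested, and 157 of 57062 probes passed the threshold. An unadjusted p under 0.05 at any fold was found for 8 member probes, 7 of them lower, where 6.77% of all probes had one in either direction and 2.76% a lower value with it. The values of the labels did not overlap for 10 member probes, all lower under the 1α,25(OH)2D3 label, against 12.2% of all probes in either direction and 5.18% lower. No member probe had an adjusted p under 0.05, the smallest being 0.701. Over the whole array the count at that threshold was 0 with limma, which gave 4286 probes an unadjusted p under 0.05, and 0 with an unpaired t-test, which gave 3916.

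**Figure D1:**
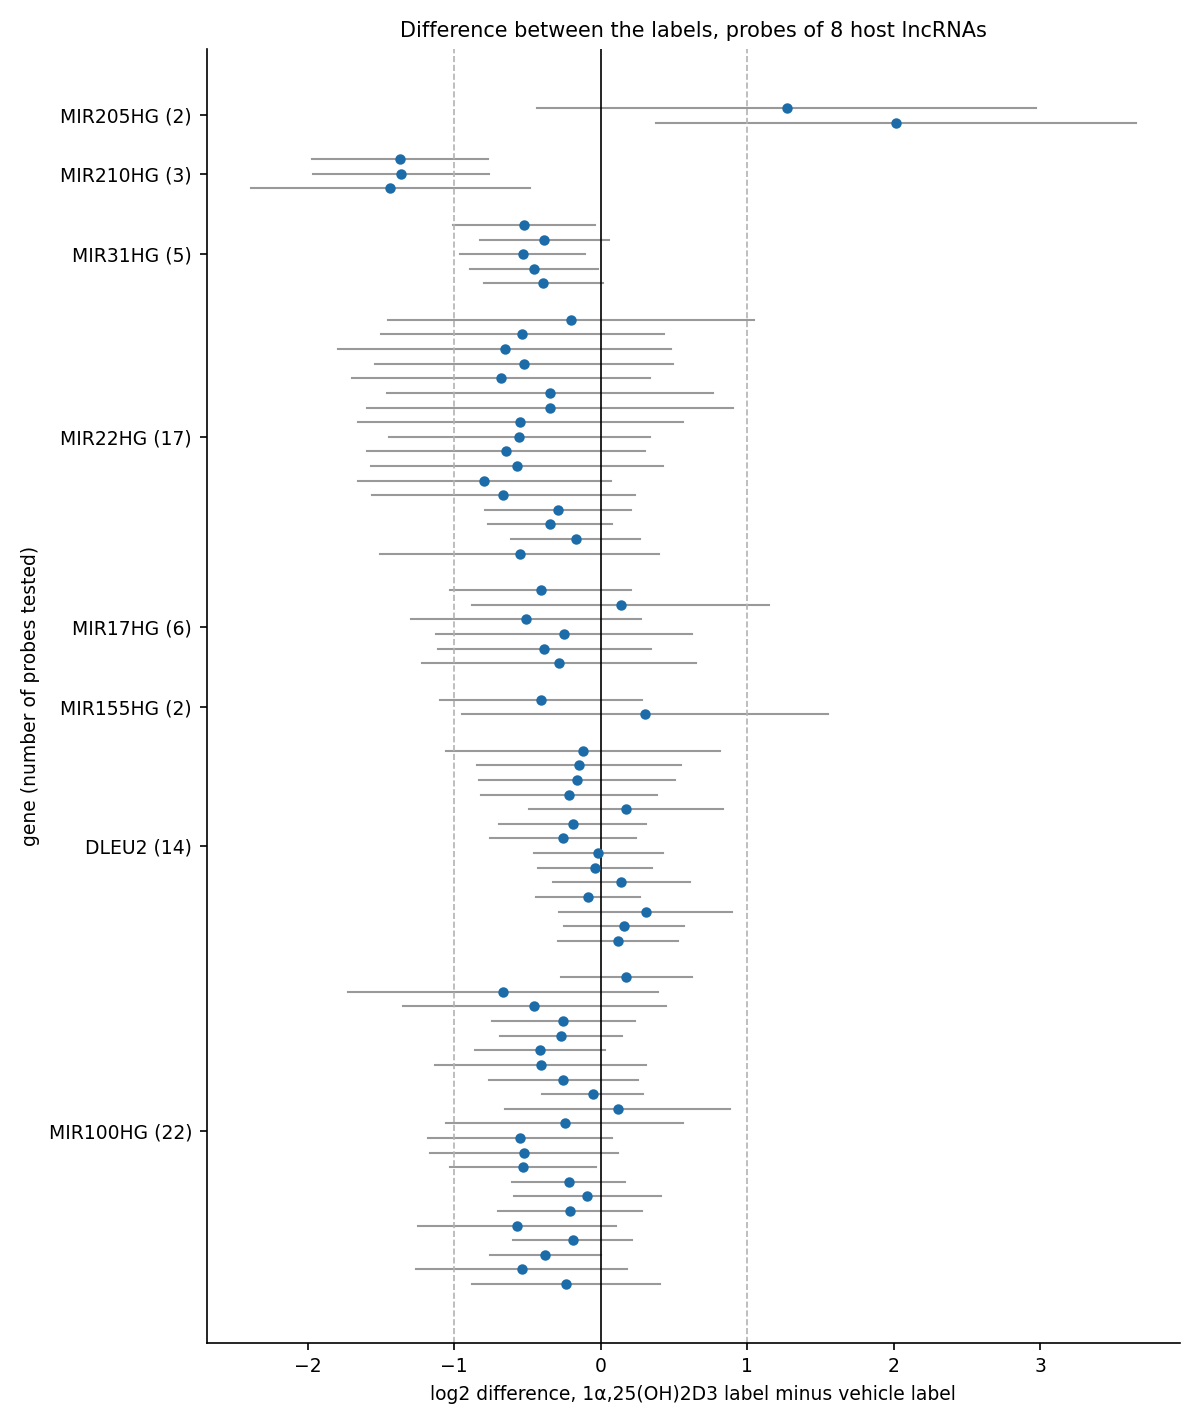
Log2 difference between the arrays labelled 1α,25(OH)2D3 and those labelled vehicle (horizontal axis) for the 71 tested probes of the 8 host lncRNAs, grouped by gene (vertical axis, with the number of probes tested). Points are limma estimates, bars are 95% confidence intervals, and dashed lines mark a fold of 2. The 2 MIR205HG probes lie at 1.27 and 2.01, the 3 MIR210HG probes between -1.44 and -1.36, and every other probe within a fold of 2.

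MIR205HG showed the widest spread between arrays. The gene lies at chr1:209428817-209432848 on the plus strand (hg38), with the hairpin of miR-205 near its 3′ end. Its 5 probes are shown because they read different parts of the RNA. Both probes that were tested lie upstream of the hairpin, OEV5_37581 joins an exon to the hairpin and contains the whole miR-205-3p strand (capitals), and the other 2 lie downstream of it. In GENCODE each of the 5 falls in exons of the gene.
OEV5_32977 (chr1:209430478-209430537): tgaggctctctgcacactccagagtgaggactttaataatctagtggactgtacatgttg
OEV5_32976 (chr1:209430917-209430976): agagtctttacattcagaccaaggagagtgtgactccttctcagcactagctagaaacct
OEV5_37581 (spliced, chr1:209429396-209432250): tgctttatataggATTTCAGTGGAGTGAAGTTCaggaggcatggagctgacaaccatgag
A_33_P3229107 (chr1:209432447-209432506): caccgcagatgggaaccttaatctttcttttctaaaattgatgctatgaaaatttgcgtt
OEV5_31952 (chr1:209432741-209432800): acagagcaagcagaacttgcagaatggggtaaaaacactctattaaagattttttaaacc

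OEV5_32976 read 8.35, 6.07 and 8.13 on replicates 1 to 3 of the 1α,25(OH)2D3 label and 5.67, 6.46 and 4.38 on vehicle replicates 1 to 3, the last not well above background. Replicates 1 and 3 of the 1α,25(OH)2D3 label were the highest, vehicle replicate 3 was the lowest, and the labels overlapped, since replicate 2 of the 1α,25(OH)2D3 label lay below vehicle replicate 2. The difference was 2.01 ± 0.70 (SE), a fold of 4.04, with an unadjusted p of 0.0222 and an adjusted p of 0.701 in limma. The values spanned 3.98 over the 6 arrays, and 0.069% of all tested probes had as wide a range. The median range of all tested probes was 0.691.

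The other tested probe, OEV5_32977, had the same shape at 7.61, 5.37 and 7.99 against 5.92, 6.56 and 4.68. Its difference of 1.27 ± 0.73 (SE) had an unadjusted p of 0.122 in limma and an adjusted p of 0.703. The 2 probes with incomplete detection ranked the arrays in a similar way. OEV5_37581 read 6.66, 4.23 and 6.72 against 3.70, 5.23 and 4.20 and was well above background on replicates 1 and 3 of the 1α,25(OH)2D3 label and on vehicle replicate 2. A_33_P3229107 read 6.55, 3.93 and 6.51 against 4.66, 5.05 and 3.29 and was well above background on those 3 arrays and on vehicle replicate 1. OEV5_31952, the single probe in the transcript GENCODE marks as canonical, was well above background on no array. The 4 probes with signal therefore had their 3 highest values on the same 3 arrays, replicates 1 and 3 of the 1α,25(OH)2D3 label and vehicle replicate 2, which are the arrays on which the CYP24A1 probe A_23_P28815 was not well above background. This is a description of 6 arrays, and the part of the hormone or of any other cause in it was not tested.

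The call on OEV5_32976 rested on single arrays. Without replicate 1 or 3 of the 1α,25(OH)2D3 label the difference was 1.60 or 1.71, with unadjusted p of 0.0800 and 0.0920, and without vehicle replicate 3 it was 1.45, with p of 0.0741. Leaving out replicate 2 of the 1α,25(OH)2D3 label gave 2.74, with p of 0.00199. Within slide 2, where 1 array of the 1α,25(OH)2D3 label faced 3 vehicle arrays, the difference was 2.63. Its unadjusted p = 0.0282 rests on the spread of the vehicle arrays alone and is no replicated check. With the slide as a block the difference was 2.63 (unadjusted p = 0.0512). The direction was the same under all these settings in limma.

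**Figure D2:**
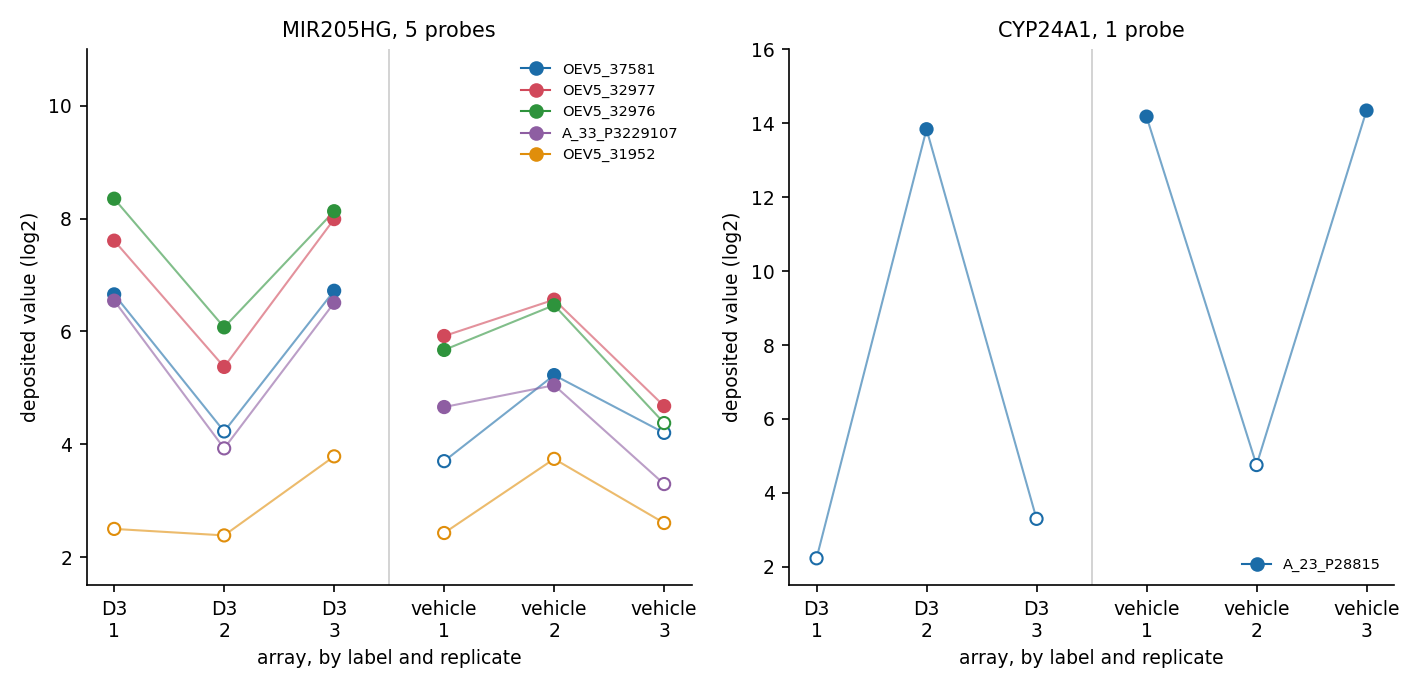
Deposited log2 value (vertical axes) on each of the 6 arrays (horizontal axes, D3 for the 1α,25(OH)2D3 label) of the 5 MIR205HG probes (left) and of the CYP24A1 probe A_23_P28815 (right). Filled points were well above background, open points were not, and the lines join the points of 1 probe without implying an order. MIR205HG was highest on D3 replicates 1 and 3, at up to 8.35, where the CYP24A1 probe read 2.23 and 3.30.

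Among 39867 other tested probes with a gene symbol, the 5 whose 6 values, each centred on its own mean, were closest to those of OEV5_32976 were probes of LINC02683, MUC5AC, ATP8B5P, LMO7DN and MIR548A1HG. The root mean square difference from OEV5_32976 was 0.25 for LINC02683 and 0.30 for MUC5AC, a gel-forming mucin of mucous epithelia, and reached 0.58 for MIR548A1HG. The LINC02683 probe read 8.38, 6.11 and 8.50 against 6.40, 6.71 and 4.89. The MUC5AC probe read 13.81, 11.58 and 14.07 against 11.57, 11.87 and 10.61. Both were thus highest on replicates 1 and 3 of the 1α,25(OH)2D3 label and lowest on vehicle replicate 3, as MIR205HG was. They were picked for this likeness, so their differences between the labels are no separate evidence.

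MIR205HG is a basal epithelial transcript, so the basal marker list is given beside it. Of its 7 genes, 6 were well above background on all 6 arrays, among them KRT5 and KRT14, and desmoglein 3 (DSG3) was so on none. Of the 6 tested, 3 had a positive and 3 a negative difference, with a median of -0.31, whereas both tested MIR205HG probes had positive ones. The log2 of their summed levels ran from 13.88 to 14.67 under the 1α,25(OH)2D3 label and from 13.73 to 14.52 under the vehicle label. TP63, the master factor of basal cells, read 8.97, 7.31 and 8.80 against 6.97, 8.33 and 8.55 (difference 0.41, unadjusted p = 0.473 in limma). KRT6A stood at 10.67 on vehicle replicate 2 and between 5.41 and 6.99 on the other arrays. The part of these genes in the MIR205HG values was not tested. In bulk samples fewer cells with a transcript and less of it per cell cannot be told apart.

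MIR210HG was lower on every array of the 1α,25(OH)2D3 label than on every vehicle array, for all 3 of its probes. The gene lies at chr11:565657-568457 on the minus strand (hg38). Its probes are shown because 2 of the 3 are nearly 1 probe: OEV5_52904 and OEV5_58120 share 58 bases (capitals). All 3 lie downstream of the hairpin, in exons of the canonical transcript.
OEV5_52904 (chr11:567568-567625): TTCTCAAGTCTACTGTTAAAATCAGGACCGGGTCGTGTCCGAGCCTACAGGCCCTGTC
OEV5_58120 (chr11:567566-567625): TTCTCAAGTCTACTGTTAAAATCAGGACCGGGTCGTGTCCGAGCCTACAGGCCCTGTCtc
OEV5_52952 (chr11:566977-567036): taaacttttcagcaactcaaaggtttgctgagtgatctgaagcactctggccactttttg

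OEV5_52904 read 6.38, 6.27 and 6.19 on the 1α,25(OH)2D3 arrays and 7.31, 8.23 and 7.40 on the vehicle arrays. Its overlapping partner OEV5_58120 read 6.51, 6.30 and 6.32 against 7.54, 8.32 and 7.37. The 3 arrays of the 1α,25(OH)2D3 label were close together on both, and vehicle replicate 2 was the highest on all 3 probes of the gene. The difference of OEV5_52904 was -1.37 ± 0.26 (SE), a fold of 2.58, with an unadjusted p of 0.000839 in limma and an adjusted p of 0.701, and 0.039% of all tested probes had an unadjusted p as small. OEV5_58120 gave -1.36 ± 0.26 (SE) with an unadjusted p of 0.000884.

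The third probe, OEV5_52952, lies 1053 bases downstream of the hairpin and was near the detection limit under the 1α,25(OH)2D3 label. It read 4.25, 4.08 and 2.72 against 5.23, 5.41 and 4.71, and on replicates 2 and 3 of the 1α,25(OH)2D3 label it was not well above background. Its difference was -1.44 ± 0.41 (SE), with an unadjusted p of 0.00867 in limma and the same adjusted p of 0.701. Without replicate 3 of the 1α,25(OH)2D3 label it was -0.95, under a fold of 2.

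For the 2 overlapping probes the differences stayed between -1.55 and -1.07 when any 1 array was left out, and every such fit passed the threshold. Within slide 2, where replicate 3 alone stands for the 1α,25(OH)2D3 label, the 3 probes gave -1.46, -1.42 and -2.40. The last is OEV5_52952, which read 2.72 on that array and was not well above background there. After normexp background correction, which pulls low signals together, the differences were -0.91, -0.93 and -0.32, each under a fold of 2, with unadjusted p of 0.00149, 0.00141 and 0.0212. Replicate 2 of the 1α,25(OH)2D3 label, where the CYP24A1 probe read 13.84, was as low on MIR210HG as replicates 1 and 3, where that probe was not well above background.

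**Figure D3:**
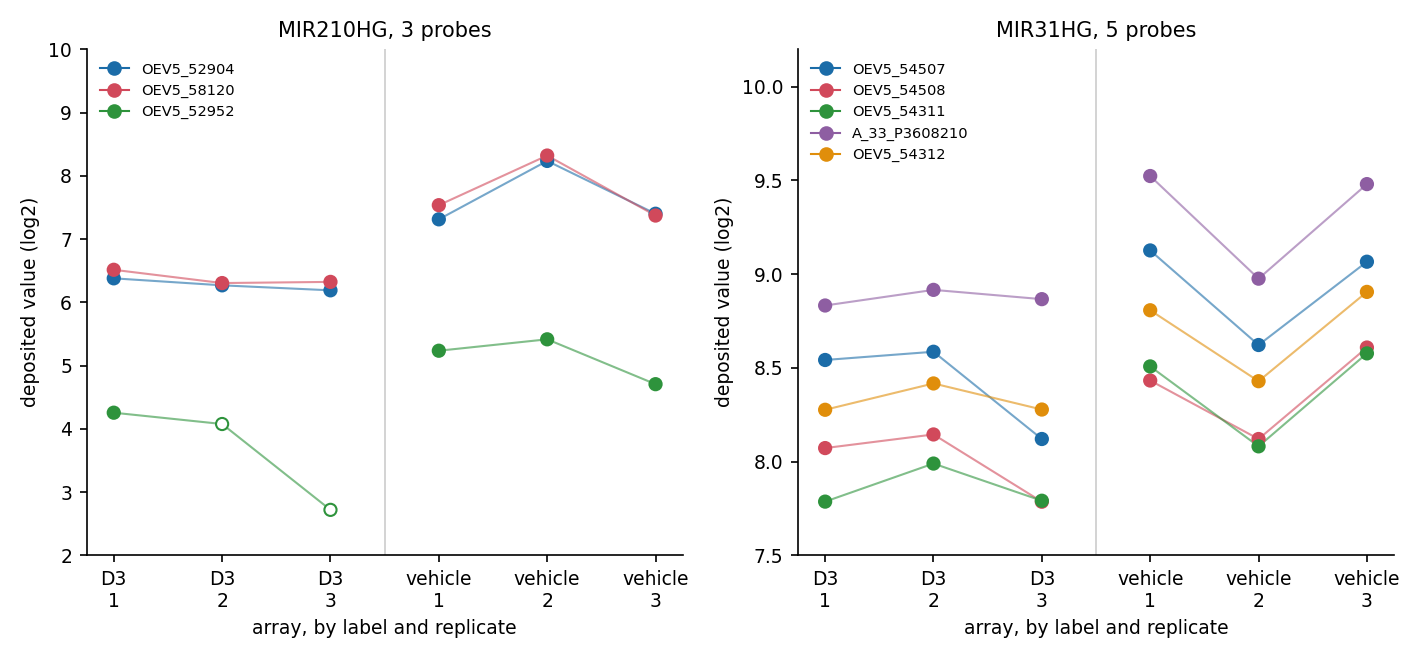
Deposited log2 value (vertical axes, which do not start at 0) on each of the 6 arrays (horizontal axes, D3 for the 1α,25(OH)2D3 label) of the 3 MIR210HG probes (left) and the 5 MIR31HG probes (right). Filled points were well above background, open points were not, and lines join the points of 1 probe without implying an order. MIR210HG probe OEV5_52904 read at most 6.38 on the D3 arrays and at least 7.31 on the vehicle arrays.

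MIR210HG is a textbook target of the hypoxia-inducible factors, which bind sites with short cores such as ACGTG. No other core of these factors was searched for. The 300 bases around the start of MIR210HG (250 before and 50 after, chr11:568408-568707, minus strand, RefSeq GRCh38.p14) are shown as background on the gene. Its 3 probes are not 3 separate readings. OEV5_52904 and OEV5_58120 share 58 bases, and OEV5_52952 passed the detection filter only through the vehicle label. Capitals mark the only match to ACGTG and the only match to AGGTCA, a half-site of nuclear receptors such as the vitamin D receptor, on either strand.
MIR210HG promoter: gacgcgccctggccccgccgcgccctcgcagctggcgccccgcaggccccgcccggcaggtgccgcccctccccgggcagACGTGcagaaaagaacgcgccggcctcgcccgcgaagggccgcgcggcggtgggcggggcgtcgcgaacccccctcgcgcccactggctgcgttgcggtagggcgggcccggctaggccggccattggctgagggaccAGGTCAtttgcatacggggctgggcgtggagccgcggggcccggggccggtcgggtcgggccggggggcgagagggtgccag
Such short words are common. Of 35116 RefSeq promoters of this length, 21.4% hold ACGTG and 13.8% hold AGGTCA on either strand, and of the 14 promoters of the 8 host genes 5 and 3 did. The MIR205HG promoter held neither. A match is a run of letters and not a measured binding site. HIF1A, a subunit of the factor, had a difference of 0.0053 (unadjusted p = 0.982 in limma). Its partner ARNT had one of 0.48, under a fold of 2 (unadjusted p = 0.0289, adjusted p = 0.701). Both are RNA levels and not measures of the factor's activity, and its part in the MIR210HG values was not tested.

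MIR31HG, at chr9:21380073-21559891 on the minus strand (hg38), was well above background on all 6 arrays with all 5 probes. The probes lie between 34886 and 57582 bases downstream of the MIR31 hairpin, so they read a part of the host 3′ of it. They lie 82662 to 105358 bases from the start of a gene of 179819 bases. None is in the transcript GENCODE marks as canonical. All 5 differences were negative, from -0.53 to -0.39, less than a fold of 2. For 3 probes the unadjusted p was under 0.05 in limma, and for 4 the labels did not overlap. Of all probes tested, 2.76% were lower with such a p, and 5.18% were lower without overlap. The gap could be small: on OEV5_54312 the highest 1α,25(OH)2D3 array read 8.42 and the lowest vehicle array 8.43. The probes read 1 gene on the same arrays and are not replicates. The probe with the smallest p, OEV5_54311, read 7.79, 7.99 and 7.79 against 8.51, 8.08 and 8.58 (difference -0.53 ± 0.18 SE, unadjusted p = 0.0209, adjusted p = 0.701 in limma). A_33_P3608210 read 8.83, 8.92 and 8.87 against 9.52, 8.98 and 9.48, with a difference of -0.46 (unadjusted p = 0.0433). On all 5 probes vehicle replicates 1 and 3 were the 2 highest arrays, and vehicle replicate 2 lay next to replicate 2 of the 1α,25(OH)2D3 label. OEV5_54508, the probe whose labels overlapped, read 8.14 on replicate 2 of the 1α,25(OH)2D3 label and 8.12 on vehicle replicate 2. The median difference of the gene ran from -0.63 to -0.36 when 1 array was left out and was -0.60 within slide 2. The probes do not share bases, although OEV5_54508 and OEV5_54311 lie opposite the pseudogene IFNWP19 on the other strand.

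MIR22HG, at chr17:1711447-1717174 on the minus strand (hg38), was well above background on all 6 arrays with all 17 probes. All 17 differences were negative, from -0.79 to -0.17 with a median of -0.55, and none had an unadjusted p under 0.05 (0.0668 to 0.718). Much of the size came from 1 array. Vehicle replicate 3 was the highest array on all 17 probes, at a median of 1.17 above the probe's mean, whereas vehicle replicates 1 and 2 lay at -0.22 and -0.15 and replicate 2 of the 1α,25(OH)2D3 label at 0.30. Over all tested probes, 16.1% were highest on vehicle replicate 3. The lowest array was replicate 1 or replicate 3 of the 1α,25(OH)2D3 label on all 17. Without vehicle replicate 3 the median difference of the gene was -0.12, and within slide 2 it was -0.87.

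The MIR22HG probes fell into 2 shapes. OEV5_54335, the probe with the largest difference, read 6.70, 7.37 and 6.75 against 7.34, 7.27 and 8.57. Like it, 14 probes spanned 1.73 to 2.21 over the 6 arrays. The other 3, A_24_P253723, OEV5_55034 and OEV5_55142, had a mean above 10 and spanned only 0.643 to 0.873. A_24_P253723 read 11.72, 12.05 and 12.27 against 12.04, 12.28 and 12.60. These 3 share at least 52 bases with each other near the 3′ end of the gene and match 31 of its 32 annotated transcripts. OEV5_54501, which overlaps all 3 by 25 to 33 bases, read 7.40, 8.25 and 7.31 against 7.91, 7.64 and 9.06 and had the wider shape of the 14. Overlapping probes of 1 exon thus did not give the same spread between arrays, and the cause was not tested. The split of the probes at a mean of 10 was made after their values were seen.

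MIR17HG, at chr13:91347686-91397592 on the plus strand (hg38), had 10 probes, of which 5 lie in precursors of the miR-17-92 cluster and 5 outside them. The 5 in precursors are shown because they overlap the hairpins that Drosha cuts out. Capitals mark bases of the mature microRNA arms.
OEV5_51682 (miR-17, chr13:91350625-91350684): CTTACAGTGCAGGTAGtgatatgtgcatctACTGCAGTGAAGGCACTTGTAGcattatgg
OEV5_51671 (miR-18a, chr13:91350768-91350827): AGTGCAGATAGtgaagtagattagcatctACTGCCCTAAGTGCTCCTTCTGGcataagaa
OEV5_51653 (miR-19a, chr13:91350910-91350969): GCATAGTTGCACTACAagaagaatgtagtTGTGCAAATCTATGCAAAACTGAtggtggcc
OEV5_51660 (miR-19b-1, chr13:91351217-91351276): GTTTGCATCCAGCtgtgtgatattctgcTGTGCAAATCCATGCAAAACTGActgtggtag
OEV5_51670 (miR-92a-1, chr13:91351314-91351373): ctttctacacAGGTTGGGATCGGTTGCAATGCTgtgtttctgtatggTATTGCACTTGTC

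Signal differed along the cluster. The miR-18a probe was well above background on all 6 arrays and read 7.73, 7.82 and 7.47 against 6.48, 7.75 and 8.38, a difference of 0.14 (unadjusted p = 0.762 in limma). The miR-19a and miR-19b-1 probes were well above background on no array. The miR-17 probe was so on vehicle replicates 2 and 3, and the miR-92a-1 probe on those and on replicates 1 and 2 of the 1α,25(OH)2D3 label. A probe's brightness also depends on its sequence, so these counts do not rank the precursors. The 5 probes outside the precursors were well above background on all 6 arrays, with differences from -0.51 to -0.25 and unadjusted p from 0.163 to 0.529. A_33_P3313622, just before the miR-17 hairpin, read 7.48, 7.70 and 7.72 against 7.49, 8.11 and 8.53. Vehicle replicate 3 was the highest array on all 6 tested probes of the gene, and vehicle replicate 1 the lowest on 4. MYC, the textbook activator of this cluster, ran from 9.94 on vehicle replicate 1 to 11.69 on vehicle replicate 3. Its difference between the labels was -0.18 (unadjusted p = 0.697 in limma), and its part in the MIR17HG values was not tested.

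MIR100HG, at chr11:122028325-122556721 on the minus strand (hg38), is the longest of the 8 genes and had 32 probes. Of these, 21 were well above background on all 6 arrays, 7 on none, and 22 were tested. The difference was negative for 20 of the 22, with a median of -0.26 and a range of -0.67 to 0.18. The probe at -0.67, OEV5_52095, passed the detection filter only through the vehicle label, in which it was higher. A single probe, A_33_P3404316, had an unadjusted p under 0.05. It read 9.38, 9.94 and 9.36 against 9.96, 9.96 and 10.34 (difference -0.53, unadjusted p = 0.0405, adjusted p = 0.701 in limma). Its labels did not overlap, but replicate 2 of the 1α,25(OH)2D3 label came close to vehicle replicates 1 and 2. OEV5_51724 read 10.54, 11.28 and 10.60 against 11.01, 11.21 and 11.77. Both had replicates 1 and 3 of the 1α,25(OH)2D3 label lowest and vehicle replicate 3 highest. That array was the highest on 13 of the 22 probes, and replicate 1 or replicate 3 of the 1α,25(OH)2D3 label was the lowest on 18.

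Along MIR100HG the sign did not follow position. Of 10 probes upstream of the MIR100 hairpin 6 were tested, 5 with a negative difference. Of 7 probes more than 70000 bases downstream of MIR125B1, at the 3′ end of the gene, 4 were tested, all negative, and of the 15 between them 12 were tested, 11 negative. At the 3′ end the 4 tested probes did not share 1 shape. A_19_P00315649 read 10.64, 10.78 and 10.97 against 11.09, 11.34 and 11.10 and did not have replicate 3 of the 1α,25(OH)2D3 label low (difference -0.38, unadjusted p = 0.0524). OEV5_76783 was lowest on replicate 2 of that label, while A_19_P00812924 was lowest on its replicate 3 and highest on vehicle replicate 3, as many probes elsewhere in the gene were. Of the 7 probes there, 2 were well above background on fewer than 4 arrays and 1 on none, although all 7 match at least 12 annotated transcripts of the gene.

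MIR155HG, at chr21:25561810-25575168 on the plus strand (hg38), was close to background. OEV5_55826, ending 4 bases before the miR-155 arms, read 5.04, 5.53 and 5.10 against 5.06, 6.19 and 5.65. OEV5_58561 read 5.41, 5.95 and 6.43 against 4.35, 6.48 and 6.05, and was not well above background on vehicle replicate 1. The differences had opposite signs, -0.41 (unadjusted p = 0.206) and 0.30 (unadjusted p = 0.586). The latter was -0.33 without vehicle replicate 1. A_32_P108156, whose first 6 bases lie in miR-155-3p, was well above background on vehicle replicate 1 alone. Both tested probes were highest on vehicle replicate 2.

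DLEU2, at chr13:49956670-50125720 on the minus strand (hg38), was well above background on all 6 arrays with all 14 probes. The differences ran from -0.26 to 0.31 with a median of -0.06, 9 negative and 5 positive, and no unadjusted p was under 0.262. The lowest array was replicate 3 of the 1α,25(OH)2D3 label on 10 of the 14 probes. OEV5_58504 read 9.20, 9.42 and 8.67 against 9.33, 9.45 and 9.28 and shows that shape. OEV5_54689, 66295 bases downstream of the MIR16-1 hairpin, read 8.53, 8.46 and 7.86 against 8.36, 7.89 and 7.67, the largest positive difference of the gene at 0.31 (unadjusted p = 0.262 in limma). The 6 probes more than 20000 bases downstream of MIR16-1 had 4 positive and 2 negative differences and the other 8 had 1 positive and 7 negative, a split made after the values were seen. Within slide 2, where replicate 3 alone stands for the 1α,25(OH)2D3 label, the median difference of the gene was -0.38. A_33_P3286218 also matches DLEU2L, and OEV5_54846 crosses TRIM13 on the other strand, so A_33_P3286218 is uncertain as a reading of DLEU2.

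**Figure D4:**
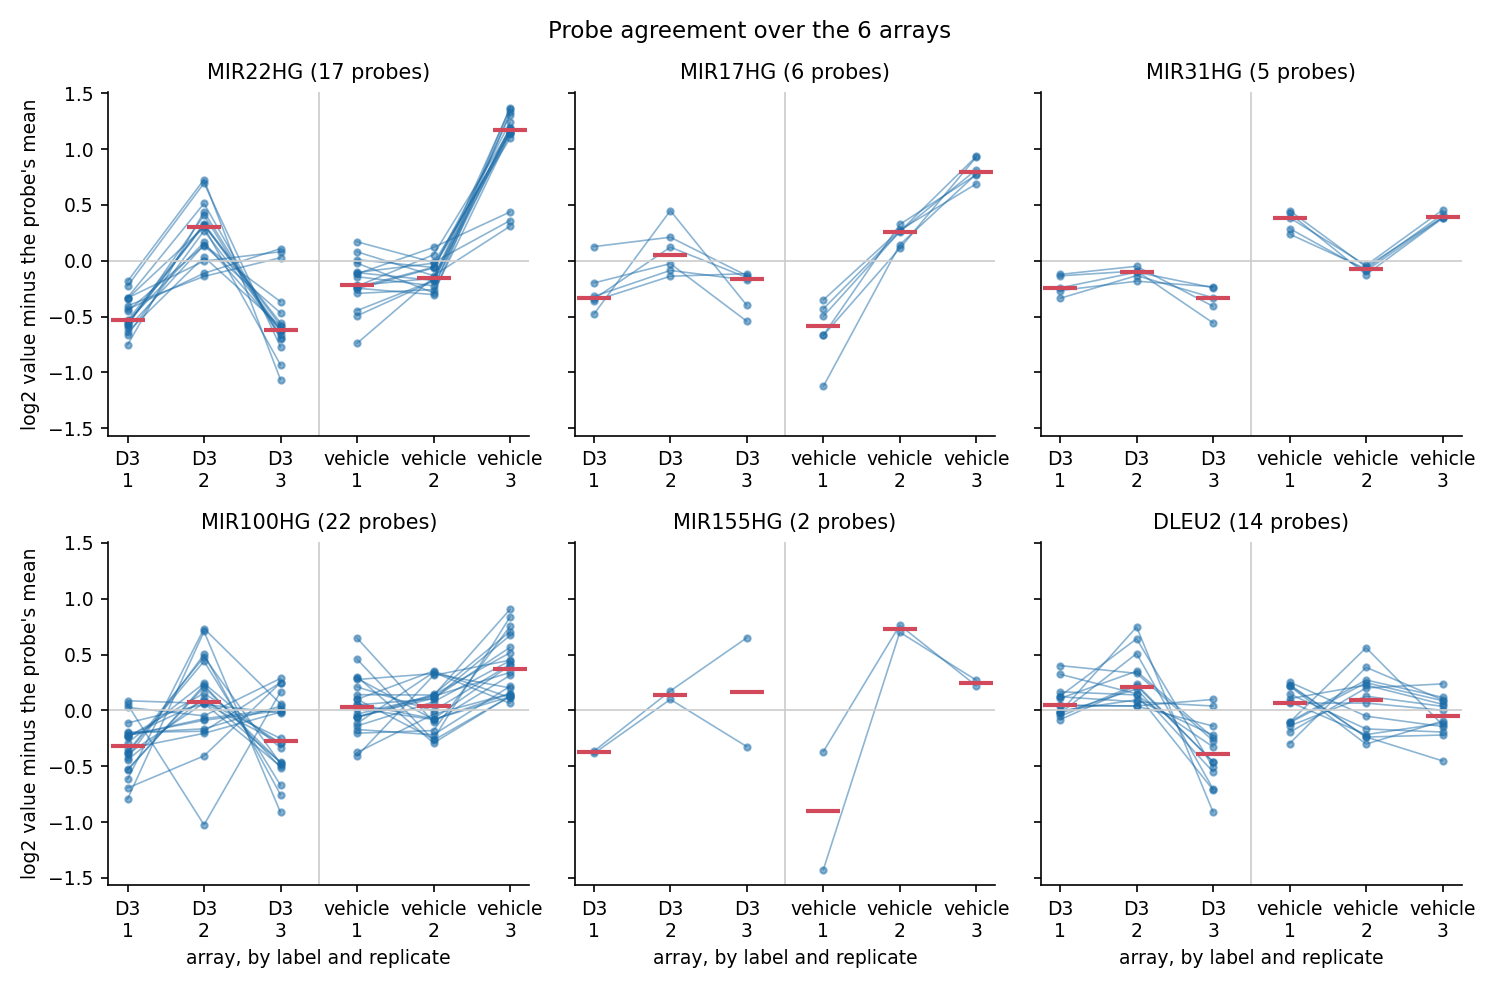
Log2 value minus the probe's own mean over the 6 arrays (vertical axes) on each array (horizontal axes, D3 for the 1α,25(OH)2D3 label) for every tested probe of 6 host lncRNAs. Points are probes, lines join the points of 1 probe without implying an order, and red bars are medians over the probes. Vehicle replicate 3 stands highest for MIR22HG (median 1.17) and MIR17HG (0.80), vehicle replicates 1 and 3 for MIR31HG (0.39 each), and D3 replicate 3 lowest for DLEU2 (-0.39).

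The other genes of the pathway were read through the brightest tested probe of each. Of 32 other microRNA host lncRNAs, 26 were tested, 18 with a positive and 8 with a negative difference and a median of 0.13. None passed the fold and p threshold. Of 27 protein-coding hosts 25 were tested, 12 positive and 13 negative. EVL, an actin regulator that hosts miR-342, had a difference of 0.44 (unadjusted p = 0.0349) and SLIT2, an axon guidance ligand that hosts miR-218-1, one of -0.61 (unadjusted p = 0.0267). Neither reached a fold of 2. The median of this list was -0.0030. A less bright probe of DNM3, a dynamin, passed the fold and p threshold, whereas the brightest did not.

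Genes of the machinery that makes and uses microRNAs gave differences on both sides of 0. Of 27 processing and RISC genes 23 were tested, 12 with a positive and 11 with a negative difference and a median of 0.03. None passed the fold and p threshold. TNRC6C, a scaffold that ties Argonaute to deadenylation, had 0.59 (unadjusted p = 0.0160, adjusted p = 0.701 in limma), with values of 9.96, 9.81 and 9.38 against 9.23, 9.12 and 9.03. Of 37 transcriptional regulators of the 8 hosts and their neighbours, 30 were tested, 15 positive and 15 negative. FOS, an immediate early subunit of AP-1, was the single gene past the threshold. It read 6.24, 8.88 and 6.83 against 8.42, 8.58 and 9.71 (difference -1.59 ± 0.67 SE, unadjusted p = 0.0457, adjusted p = 0.701). FOS was lowest on replicates 1 and 3 of the 1α,25(OH)2D3 label and highest on vehicle replicate 3. The part of FOS in the values of the 8 hosts was not tested. LAMB3, the laminin chain gene that neighbours MIR205HG, had a difference of -0.62 (unadjusted p = 0.0222), under a fold of 2.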

How the data were processed

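Total RNA of SKOV3 cells was measured on 6 single-colour Agilent arrays, 3 per label. Per the labels, the authors made Cy3-labelled cRNA, and the submitters' processing notes name Agilent Feature Extraction 10.7.1.1. The authors deposited each spot's intensity on a linear scale with a flag for spots well above background, and a log2 table, 1 value for each probe on each array, which was the main input. Its sorted columns differed by at most 0.000913, so it had been normalized by quantiles between arrays. Every column belonged to a sample of this series. The aligner and annotation behind the probe design are not given in the sources used here, and the file headers name hg19. Probe sequences were matched without mismatch to sense transcripts of GENCODE release 44 and to the hg38 genome, and coordinates are those of hg38.

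Probes that at least 1 label had well above background on each of its 3 arrays (63337 of 125601) were fitted with limma 3.58.1 in R 4.3.3, with no covariate and with Benjamini-Hochberg adjustment over all of them. The calls were a fold above 2 with an unadjusted p under 0.05, as in the study's results, an absolute log2 difference above 2 with an adjusted p under 0.05, as in its methods, and an adjusted p under 0.05 at any fold. The fit was tested on simulated data. Alternatives were log2 scanner signal relative to the 75th percentile, normexp (offset 50) with quantile normalization, no filter or a filter on all 6 arrays, replicate or slide as a block, slide 2 alone, 1 array left out in turn, an unpaired t-test with equal variances (named in the study's methods for its other experiments, not for the arrays), and 1 probe per gene name.

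The genes named are the 8 members, the members of the lists that passed the fold and unadjusted p threshold, and the 5 probes most like the brightest MIR205HG probe. Genes from the lists with an unadjusted p under 0.05, DNM3, and HIF1A, MYC, TP63 and KRT6A, were named after their values were seen. The members and lists were chosen with earlier results of these data known. Fibroblast, endothelial and leukocyte markers were read as well: of the fibroblast genes 4 of 6 were well above background on all 6 arrays and DCN on none, with COL3A1 at a difference of -0.48 (unadjusted p = 0.0346 in limma), of the endothelial genes 3 of 4 and KDR on none, and of the leukocyte genes 7 of 7, CD79A between 16.32 and 16.77. Their log2 summed levels under the 1α,25(OH)2D3 and the vehicle label were 8.92 to 9.02 and 9.00 to 9.15 for the fibroblast list, 8.96 to 9.11 and 9.05 to 9.39 for the endothelial list, and 16.44 to 16.79 and 16.33 to 16.55 for the leukocyte list. Their part in the results was not tested.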

Additional observations from a re-analysis of the deposited data

How the results depend on the processing

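Member probes past the fold and unadjusted p threshold numbered 4. The count was 1 with normexp and quantile normalization, 2 with the filter on all 6 arrays, 2 with the t-test and 2 with 1 probe per gene name, and it ran from 2 (without replicate 3 of the 1α,25(OH)2D3 label) to 7 (without replicate 2 of it) when 1 array was left out. It was 4 with the scanner signal relative to the 75th percentile and with no filter, 3 with the slide as a block and 6 within slide 2, where the single array of the 1α,25(OH)2D3 label is assumed to vary like the vehicle arrays. None of these settings gave a member probe an adjusted p under 0.05.

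Over all probes the count at the same threshold was 472, with 308 higher and 164 lower. It was 32 with normexp, with 14 higher and 18 lower, 1612 with no filter, 157 with the filter on all 6 arrays, 808 with the slide as a block, 797 within slide 2, 139 with the t-test, and 296 to 1181 with 1 array left out. Probes with an adjusted p under 0.05 numbered 0 to 4 with 1 array left out, the 4 without vehicle replicate 1, and 0 otherwise.

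Replicate numbers did not pair the arrays, since the correlations of the deviations of same-numbered arrays were 0.121, 0.0922 and -0.0254. With the replicate block 4 member probes and 582 of all probes passed, and OEV5_32976 had a difference of 2.01 (unadjusted p = 0.0373).

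Of the single probes and gene medians, 312 values kept their direction and call, and 10 lost and 2 gained the call. The losses were those of OEV5_32976 (slide block, the t-test with unadjusted p = 0.101, and without replicate 1 or 3 of the 1α,25(OH)2D3 label or vehicle replicate 3), of all 3 MIR210HG probes with normexp, and of OEV5_52952 without replicate 3 of the 1α,25(OH)2D3 label and with the t-test (unadjusted p = 0.0535). The gains were those of OEV5_32977 within slide 2 (2.27, unadjusted p = 0.0338, with 1 unreplicated array in the 1α,25(OH)2D3 label) and without replicate 2 of the 1α,25(OH)2D3 label (2.08, unadjusted p = 0.00561). The MIR155HG probe OEV5_58561 ran from -0.33 (without vehicle replicate 1) to 0.73 (without vehicle replicate 2) when 1 array was left out, and so changed sign. The gene median moved beyond the spread for MIR210HG with normexp (-0.91), for DLEU2 with the slide as a block and within slide 2 (-0.38 each), and for MIR100HG with 1 probe per gene name (-0.53). The causes were not tested. Members by another gene name could not be added, because the gene name column holds probe identifiers only. The 10 member probes not above background on any array carry no usable level.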
